A study of Mus musculus with 614 samples.

Results

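Transcripts of the CCAAT/enhancer-binding protein (C/EBP) genes Cebpa, Cebpb, Cebpd and Cebpe and of the repressor gene Gfi1 were read out in single mouse cells from 12 sort gates. These 5 genes were taken by symbol from a table of 43280 gene symbols, and all 5 symbols were present. The table holds mRNA profiles of 598 cells from bone marrow and 16 from blood, every one processed in a separate chamber of a C1 microfluidic chip. The mice were untreated adult C57BL/6J animals of 7 to 10 weeks. No label names an animal or a pool, so each sort gate counts as 1 sample, cells are not replicates of a gate, and no test between gates was possible. Values are TPM, the transcript abundance of a gene scaled for length and for the total of the cell. TPM keep no read number and the depth behind a value is unknown; the count of genes reaching 1 TPM in a cell stands in for it.

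The 12 gates were sorted on surface proteins. Lymphoid-primed multipotent progenitors (LMPP, 65 cells) were lineage-negative (Lin-) c-Kit+ Sca-1+ CD34+ cells with intermediate CD16/32 and no CD127. Granulocyte-macrophage progenitors (GMP, 51 cells) were Lin- c-Kit+ Sca-1- CD34+ and high in CD16/32, the Fc gamma receptors. Common monocyte progenitors (cMoP, 66 cells) were c-Kit+ CD115+ Ly6Chi and negative for Flt3 and CD11b. Common dendritic cell progenitors (CDP, 58 cells) were the CD115-negative kind, Flt3+ with intermediate c-Kit and without IL7R. Common lymphoid progenitors (CLP, 48 cells) were CD127+ Flt3+ CD34+ with low c-Kit and Sca-1, and pre-pro-B cells (30) were B220+ CD43+ CD93+ CXCR4+ IL7R+. Marrow precursors of dendritic cells (pre-DC), CD11c+ Flt3+ without MHC class II, CD172α or B220, formed 4 gates: 68 cells were SiglecH-Ly6C+, a further 70 were SiglecH-Ly6C-, then 45 were SiglecH+Ly6C+ and 70 were SiglecH+Ly6C-. Plasmacytoid dendritic cells (pDC, 27) were B220+ SiglecH+, and blood pre-DC (16) were sorted as the marrow ones were but without SiglecH or Ly6C. GMP held the granule gene Mpo in 51 of 51 cells. The summed level of the multipotent marker genes Kit, Cd34, Meis1, Hlf and Mecom had its highest median in LMPP, 814.89 TPM, with CDP next at 261.6 TPM. Of 6 monocyte markers Fcgr1 was at 0 in all cMoP cells, and their summed median was 7024.62 TPM in cMoP and 10761.8 TPM in GMP. Csf1r and Ly6c2 of this list encode CD115 and Ly6C, on which cMoP were sorted. The pre-pro-B gate had the B lineage genes Pax5 and Vpreb1 at 0 in all 30 cells and the pDC gene Siglech present in 30 of 30.

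C/EBP proteins are basic leucine zipper transcription factors that bind DNA as dimers, among themselves or with related factors. C/EBPα is required for the step from multipotent cells to granulocyte-macrophage progenitors, C/EBPβ carries granulocyte production in emergencies and many monocyte and macrophage functions, and C/EBPδ is an acute-phase member. C/EBPε acts later in granulocytes and is required for secondary granules. Gfi1 is a zinc finger repressor that recruits histone demethylase and deacetylase complexes, and in myeloid progenitors it favours the granulocyte over the monocyte fate. It also acts in stem cells and lymphoid cells.

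On the mouse build GRCm38, with GENCODE M21 gene models, Cebpa lies at chr7:35119293-35121928 on the plus strand, Cebpb at chr2:167688915-167690418 on the plus strand and Cebpd at chr16:15887286-15891031 on the plus strand. Cebpe lies at chr14:54710360-54712174 and Gfi1 at chr5:107716657-107726036, both on the minus strand. Cebpb is a single-exon gene, Cebpe has 2 exons, and the Gfi1 transcripts have 4 to 7. Of the 5 genes 4 share exon bases with a gene on the other strand. Tmem189 covers 312 of the 1504 exon bases of Cebpb (20.7%) and Spidr 562 of the 3746 of Cebpd (15%). A430072P03Rik covers 101 of the 3187 of Gfi1 (3.17%) and Gm45091, which was not matched in the table, 51 of the 2636 of Cebpa (1.93%). The cDNA was made from oligo-dT primers and the strand used in counting is not stated, so reads from shared bases cannot be told apart. Tmem189 was at 1 TPM or more in 27 GMP cells, 26 of them also with Cebpb, and in 26 cMoP cells. Spidr was at 1 TPM or more in 29 GMP cells, 26 of them also with Cebpd, and in 44 cMoP cells, where Cebpd was low. Cebpe has no such overlap.

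The 250 bases before a start site are shown for the genes whose promoters RefSeq (GRCm38.p6) lists in the table used, because these genes were highest in the same gate. Each window runs 5′ to 3′ on the strand of its gene, and capitals mark a match to a motif searched. RefSeq windows matched 3 of the 5 genes; Cebpd and Cebpe are named only. The windows are chr7:35119043-35119292 (plus strand) for Cebpa, chr2:167688665-167688914 (plus strand) for Cebpb and chr5:107725806-107726055 (minus strand) for the upstream start of Gfi1.
Cebpa: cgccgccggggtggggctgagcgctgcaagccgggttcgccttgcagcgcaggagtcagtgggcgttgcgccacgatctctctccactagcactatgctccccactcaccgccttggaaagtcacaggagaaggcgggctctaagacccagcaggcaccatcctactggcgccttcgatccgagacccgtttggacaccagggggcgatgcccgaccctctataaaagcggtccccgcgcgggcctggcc
Cebpb: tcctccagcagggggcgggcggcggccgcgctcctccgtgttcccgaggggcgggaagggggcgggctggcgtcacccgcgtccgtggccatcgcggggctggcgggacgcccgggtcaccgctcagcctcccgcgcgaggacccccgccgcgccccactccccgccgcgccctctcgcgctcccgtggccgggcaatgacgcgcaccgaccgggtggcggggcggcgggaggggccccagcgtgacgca
Gfi1: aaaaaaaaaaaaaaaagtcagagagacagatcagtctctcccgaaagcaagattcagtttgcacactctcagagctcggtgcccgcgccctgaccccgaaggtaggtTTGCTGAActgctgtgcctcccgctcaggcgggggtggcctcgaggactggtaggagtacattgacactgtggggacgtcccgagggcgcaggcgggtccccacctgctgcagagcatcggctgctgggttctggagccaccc
Their G and C content was 66.4% for Cebpa, 81.6% for Cebpb and 59.2% for Gfi1, against a median of 52.4% over 32851 RefSeq promoter windows of this length. A second Gfi1 window at chr5:107724344-107724593 had 57.6%. The motifs searched on both strands were the palindromic C/EBP site TTGCGCAA, its looser form TTNNGNAA, the PU.1-type core GAGGAA and the Gfi1 core AAATCA; the second contains the first. They occur in 0.164%, 36.8%, 23.3% and 12.4% of all windows. The 4 windows of these genes held a single match. It was the looser C/EBP form in the upstream Gfi1 window, at position -143 from the start site, where the printed strand reads TTGCTGAA and the motif lies on the opposite strand. A match is a description of letters and not a binding site.

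Levels below are means over cells of log2(TPM + 1) with the SD over cells, and a cell is said to hold a transcript at 1 TPM or more. Intervals are exact Clopper-Pearson 95% intervals and cover counting error among cells only. The lowest value of each of the 5 genes was 0 in every gate, so the ranges over cells of any pair of gates overlap. All 5 genes had their highest mean on this log2 scale in GMP. On the scale of mean TPM this did not hold for Cebpa, at 29.6 in blood pre-DC, 15.5 in cMoP and 15.1 in GMP. The order after GMP differed from gene to gene, as the plot of TPM by cell and gate shows.

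**Figure D1:**
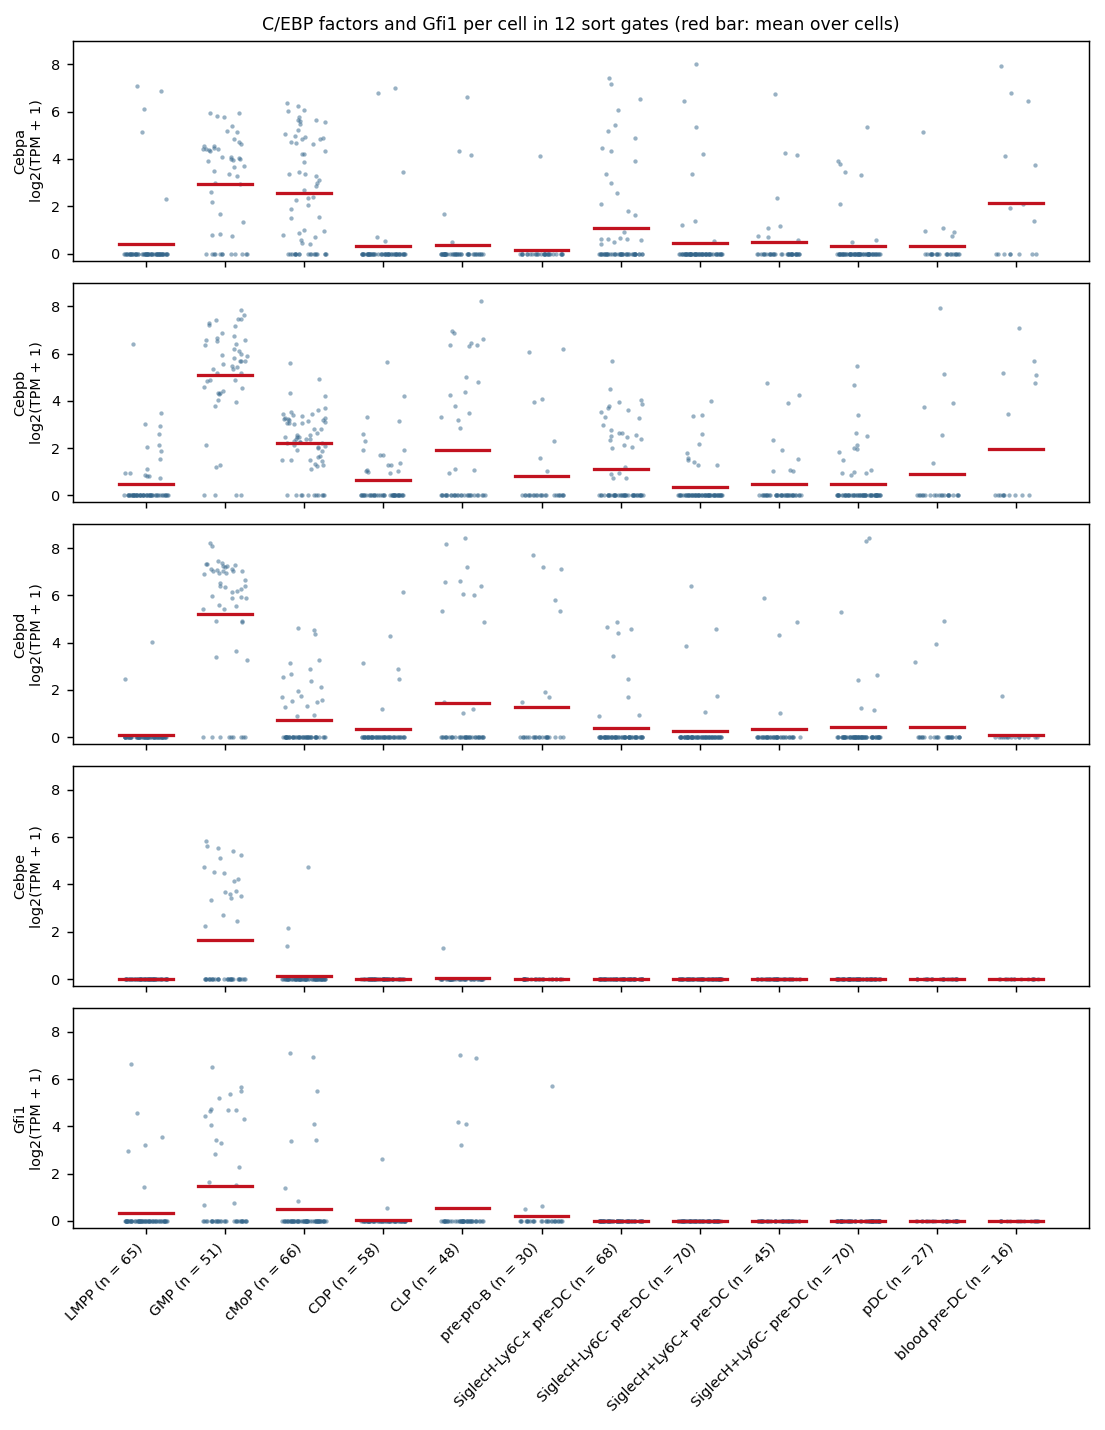
Level of each gene in each cell, as log2(TPM + 1) on the vertical axis, for the 12 gates on the horizontal axis, with 1 panel per gene; points are cells and red bars are gate means. GMP has the highest mean for all 5 genes, 2.95 for Cebpa, 5.10 for Cebpb, 5.23 for Cebpd, 1.64 for Cebpe and 1.49 for Gfi1, and cells at 0 occur in every gate.

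Cebpa, the gene of the factor that opens the granulocyte-monocyte path, was held by both myeloid progenitor gates at moderate level. In GMP it ran from 0 through a median of 11.98 to 60.44 TPM, with a mean of 2.95 ± 2.05 (SD, 51 cells). It was in 36 of 51 cells (70.6%, interval 56.2 to 82.5) and at 10 TPM or more in 28. In cMoP it ran from 0 through a median of 4.24 to 80.65 TPM, with a mean of 2.56 ± 2.26 (SD, 66 cells), and was in 40 of 66 cells (60.6%, 47.8 to 72.4). The intervals of the GMP and cMoP shares overlap, and their means differ by less than the SD over cells. Blood pre-DC came next, with a median of 0.785 TPM, a highest value of 240.31 TPM and 8 of 16 cells (50%, 24.7 to 75.3). SiglecH-Ly6C+ pre-DC followed with 16 of 68 cells (23.5%, 14.1 to 35.4). In the other 8 gates the median was 0 and between 3.3% and 13.3% of cells held the transcript. Single cells in these gates were nonetheless high, and the highest Cebpa value of the series, 256.74 TPM, was in 1 SiglecH-Ly6C- pre-DC. In LMPP, the most immature gate, 5 of 65 cells (7.7%) held it, with a highest value of 132.95 TPM.

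Cebpb, the gene of the factor of stress granulopoiesis and macrophages, was the gene of the 5 detected in the most cells, 223 over all gates. In GMP it ran from 0 through a median of 46.34 to 228.5 TPM, with a mean of 5.10 ± 2.09, and was in 47 of 51 cells (92.2%, 81.1 to 97.8). Of these GMP cells 44 were at 10 TPM or more and 11 at 100 TPM or more. In cMoP it was nearly as frequent, in 55 of 66 cells (83.3%, 72.1 to 91.4), yet low, from 0 through a median of 4.17 to 47.85 TPM with a mean of 2.23 ± 1.31. Only 8 cMoP cells reached 10 TPM, so the 2 gates are close at the threshold of 1 TPM and apart at 10 TPM. In CLP the median was 0 and the highest value 298.65 TPM, and 19 of 48 cells (39.6%, 25.8 to 54.7) held it, 14 of them at 10 TPM or more. Blood pre-DC had it in 6 of 16 cells (37.5%, 15.2 to 64.6) and SiglecH-Ly6C+ pre-DC in 24 of 68 (35.3%, 24.1 to 47.8). The remaining 7 gates had medians of 0 and shares between 15.4% and 29.3%. In the order of mean levels the share intervals of cMoP and the next gate, blood pre-DC, do not overlap, and those of all other neighbours do.

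Cebpd, the acute-phase member, was separated most clearly between GMP and the rest. In GMP it ran from 0 through a median of 76.12 to 296.96 TPM, with a mean of 5.23 ± 2.65, and was in 42 of 51 cells (82.4%, 69.1 to 91.6). Counting only values of 100 TPM and above, 20 GMP cells (39.2%) held it. CLP, the next gate in mean level, had a median of 0, a highest value of 342.26 TPM, a mean of 1.45 ± 2.72 and 13 of 48 cells (27.1%, 15.3 to 41.8). This step from GMP to CLP, 3.78 on the log2 scale, was larger than the SD over cells in either gate. Pre-pro-B cells held it in 8 of 30 cells (26.7%, 12.3 to 45.9) with a mean of 1.28 ± 2.52. In cMoP 18 of 66 cells (27.3%, 17 to 39.6) held it, from 0 to 23.82 TPM, with a mean of 0.71 ± 1.25 and 3 cells at 10 TPM or more. So CLP, pre-pro-B cells and cMoP had like shares, but cMoP lacked the cells above 100 TPM that CLP (3 cells) had. The other 8 gates had means of at most 0.45 and shares of at most 11.1%. In blood pre-DC, where Cebpa and Cebpb had higher means than in the other pre-DC, Cebpd was in 1 of 16 cells, at 2.37 TPM. The gates with the highest Cebpd means, GMP, CLP and pre-pro-B cells, share a run of library numbers, described below. The part of that run in the Cebpd values was not tested.

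Cebpe, the late granulocytic member, had the largest share of its positive cells in GMP. It was in 24 cells over all gates, and 20 of these (83.3%) were GMP. In GMP the median was 0, the upper quartile 11.6 and the highest value 55.86 TPM, with a mean of 1.64 ± 2.17 and 20 of 51 cells (39.2%, 25.8 to 53.9). The 20 GMP cells with any Cebpe spanned 3.76 to 55.86 TPM with a median of 17.19 TPM. In cMoP 3 of 66 cells held it, at 1.64, 3.48 and 26.05 TPM, and in CLP 1 cell held 1.51 TPM. It was 0 in all 449 cells of the other 9 gates, where a count of 0 is read against a floor of 3 counts of the total, here 0.668%. The share intervals of GMP and cMoP, its neighbour in the order, do not overlap.

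Gfi1, the repressor, was in 38 cells over all gates, 18 of them (47.4%) GMP. In GMP the median was 0, the upper quartile 9.32 and the highest value 90.6 TPM, with a mean of 1.49 ± 2.15 and 18 of 51 cells (35.3%, 22.4 to 49.9). In CLP it was in 5 of 48 cells (10.4%) up to 130.21 TPM, in cMoP in 7 of 66 (10.6%) up to 134.34 TPM and in LMPP in 6 of 65 (9.2%) up to 98.94 TPM. These 3 gates had a median of 0 and means of 0.53 ± 1.65, 0.49 ± 1.54 and 0.34 ± 1.19. In each of them the highest cell was above the highest GMP cell, while most cells held none. Pre-pro-B cells and CDP had 1 cell each, at 50.83 and 5.23 TPM. In the 4 marrow pre-DC gates, pDC and blood pre-DC it was 0 in all 296 cells, where the same floor is 1.01%. Over the same 296 cells Cebpa was in 45 (15.2%), Cebpb in 68 (23%) and Cebpd in 27 (9.12%). Gfi1b, the closest relative of Gfi1 and a factor of erythroid and platelet lineages, averaged 0.52 in GMP, 0.48 in CLP and 0.35 in LMPP.

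**Figure D2:**
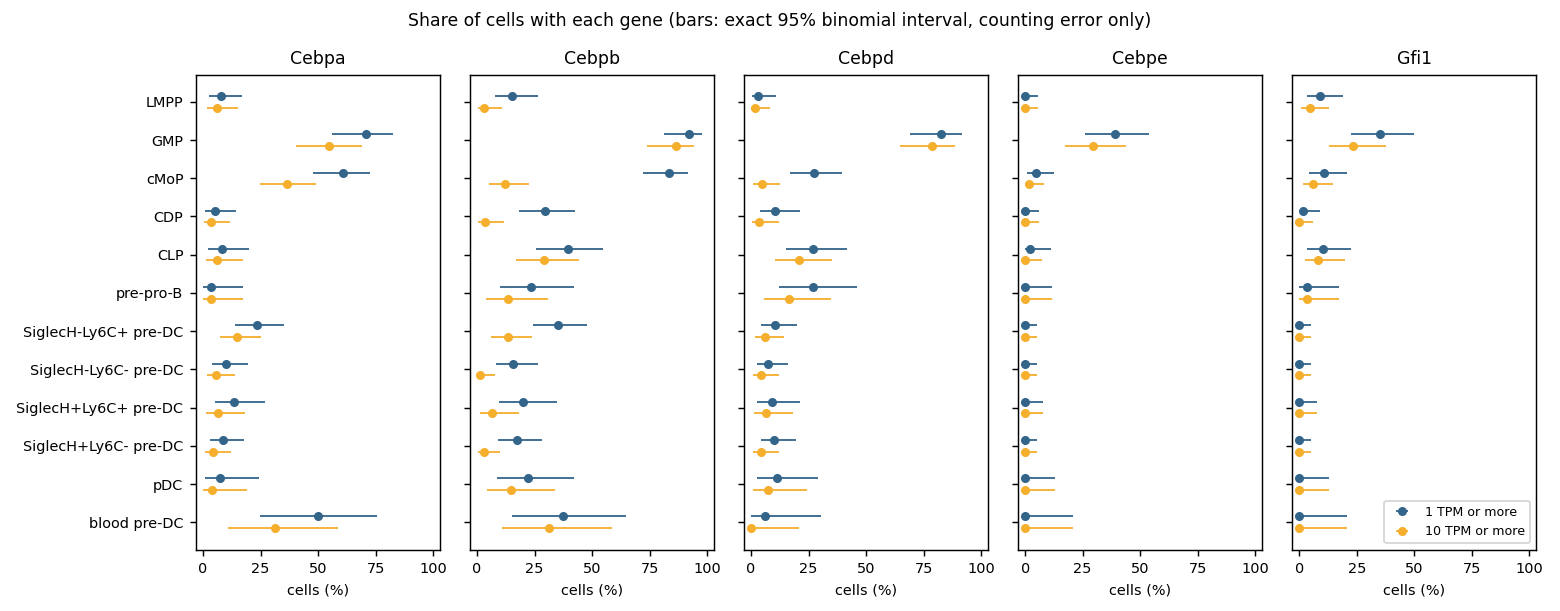
Share of cells in percent (horizontal axis) holding each gene (panels) in each of the 12 gates (vertical axis), in blue at 1 TPM and in orange at 10 TPM; points are shares and bars exact Clopper-Pearson 95% intervals over cells. The GMP shares at 1 TPM, 70.6% for Cebpa, 92.2% for Cebpb, 82.4% for Cebpd, 39.2% for Cebpe and 35.3% for Gfi1, are the highest of any gate.

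Gates differed in the number of genes per cell, with medians of 3292 in LMPP, 3280 in CLP, 5208 in CDP, 5792 in GMP and 6671 in cMoP. The 6 dendritic gates lay between 3648.5 and 4982.5. Library numbers in the labels form 9 unbroken runs, which may be batches. GMP, CLP and pre-pro-B cells share a run. LMPP, cMoP, SiglecH-Ly6C+ pre-DC and blood pre-DC each have one to themselves, and for these 4 the gate cannot be told apart from the run. The same holds between any gates without a shared run, as for GMP against CDP and pDC against SiglecH+Ly6C- pre-DC. In cells with 3000 to 6000 genes, a range chosen after the values were seen, the GMP shares were 65.5% for Cebpa, 89.7% for Cebpb, 75.9% for Cebpd, 37.9% for Cebpe and 34.5% for Gfi1 (29 cells). The LMPP shares in that range were 5.88%, 11.8%, 3.92%, 0% and 11.8% (51 cells), and the CLP shares 11.8%, 41.2%, 32.4%, 0% and 8.82% (34 cells). The range narrows but does not match gene number, with medians within it of 5428 genes in GMP, 3477 in LMPP and 3494 in CLP. The all-gene median difference in that range was 0.64 for GMP minus LMPP and 0.55 for GMP minus CLP. The part of gene number in the differences between gates was not tested.

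In the run shared with GMP, granule transcripts of GMP occurred in lymphoid cells at levels below those of GMP. The summed median of 10 primary granule genes, taken up below, was 35400 TPM in GMP, 1097.14 in CLP and 61.945 in pre-pro-B cells. Outside that run it was 19926 in cMoP, 1309.23 in LMPP and 689.9 in CDP, and 0 in SiglecH-Ly6C- and SiglecH+Ly6C+ pre-DC. Mpo, the myeloperoxidase gene, was in 100% of CLP and of pre-pro-B cells at medians of 24.7 and 13.2 TPM, and Elane, the neutrophil elastase gene, in 95.8% and 93.3%. These values stand beside the Cebpb and Cebpd values of CLP and pre-pro-B cells, and their part in them was not tested. Cebpb and Cebpd were at 100 TPM or more in 3 CLP cells each.

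The comparison of GMP with LMPP set the myeloid progenitor against the multipotent one. All 5 genes were higher in GMP by at least 1 on the log2 scale, the size used throughout to call a difference, and 49.1% of 11263 genes compared were also higher by that much. The differences were 2.53 for Cebpa, 4.60 for Cebpb, 5.13 for Cebpd, 1.64 for Cebpe and 1.15 for Gfi1, beside a median of 0.96 over all genes. Of the genes compared 98.5% lay below Cebpd and 96.9% below Cebpb, but 54.3% below Gfi1, which stood near the middle. Genes compared are those that reached 1 TPM in 10% or more of the cells of either gate. The all-gene median is itself close to the threshold, so the call of Gfi1 lies near the general shift toward GMP.

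Against CLP, within the run that both gates share, 4 of the 5 genes were higher in GMP by at least 1, as were 48.6% of 10521 genes. The differences were 2.59 for Cebpa, 3.18 for Cebpb, 3.78 for Cebpd, 1.61 for Cebpe and 0.97 for Gfi1, and the all-gene median was 0.95. CDP had a gene number per cell close to that of GMP but share no run with GMP. Against CDP all 5 were higher in GMP, as were 33.4% of 13561 genes. The differences were 2.63, 4.45, 4.88, 1.64 and 1.44 in the same order, with an all-gene median of 0.27. In this comparison 99.0% of the genes lay below Cebpd, 98.1% below Cebpb, 87.7% below Cebpa, 76.5% below Cebpe and 73.6% below Gfi1. The 3 comparisons share the GMP cells, so they are not independent of each other.

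**Figure D3:**
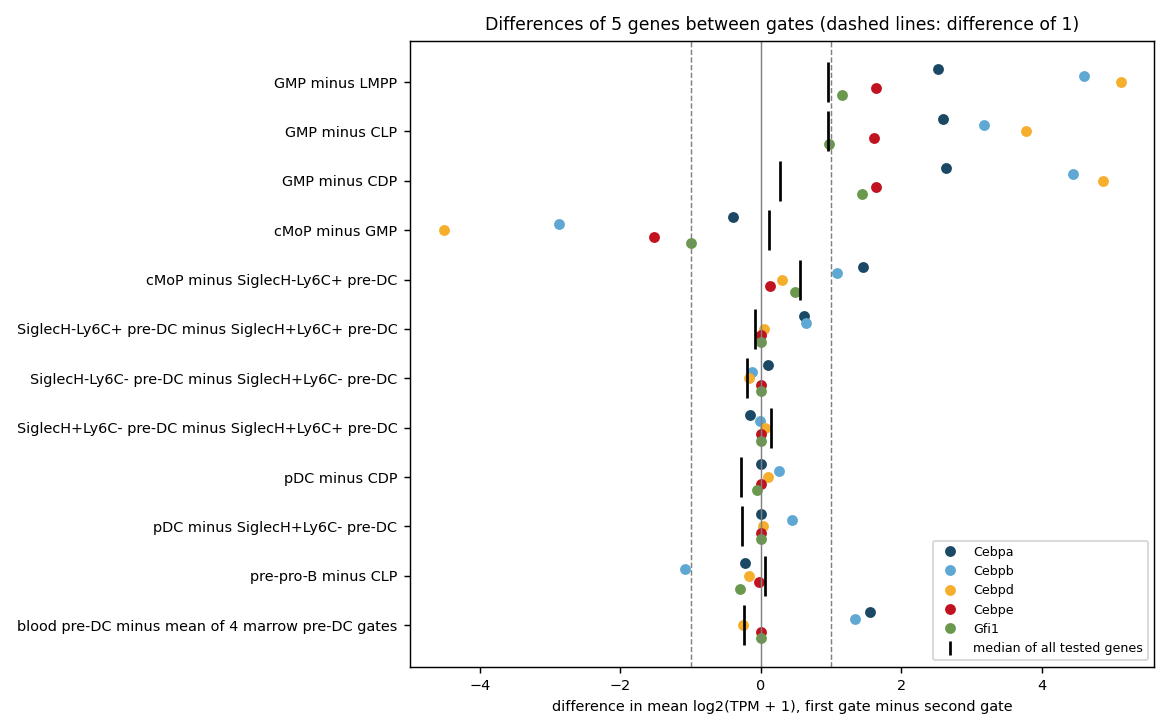
Difference between gate means of log2(TPM + 1) (horizontal axis) for each gene in the 12 comparisons (vertical axis), with a black tick for the median over all genes compared and dashed lines at a difference of 1 in either direction; genes under the detection filter are drawn too. The 5 genes lie to the right of the all-gene median when GMP is compared with LMPP, CLP or CDP, and 4 of them lie at -1.0 or below for cMoP minus GMP.

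From GMP to cMoP the genes separated. In cMoP minus GMP, Cebpa was at -0.39, Cebpb at -2.87, Cebpd at -4.51, Cebpe at -1.51 and Gfi1 at -1.0. So 4 of 5 were lower by at least 1, as were 18.7% of 13471 genes, with an all-gene median of 0.12. Only 0.304% of the genes lay below Cebpd and 2.03% below Cebpb. The call of Gfi1 sits at the edge of the threshold: 3 genes were called with size factors, with the log2 of mean TPM and without the cells that had the most genes. Spi1, which encodes the factor PU.1, was lower in cMoP, at -4.28, whereas the monocyte factor genes Klf4 and Zeb2 were higher by 2.26 and 2.47 and Irf8 differed by 0.12. Genes per cell had a median of 6671 in cMoP and 5792 in GMP, and the part of gene number in these differences was not tested.

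The dendritic comparisons left these genes mostly low. SiglecH-Ly6C+ pre-DC, the marrow pre-DC gate with the most Cebpa and Cebpb, were below cMoP by 1.46 for Cebpa and 1.09 for Cebpb. That made 2 of 4 genes compared higher in cMoP, as were 33.8% of 13301 genes, with an all-gene median of 0.56. Against SiglecH+Ly6C+ pre-DC the same cells were higher by 0.62 in Cebpa and 0.65 in Cebpb, with Cebpd at 0.05. These are 0 calls of 3 genes compared, where 8.36% of 11919 genes were called in either direction, although 90.3% and 91.2% of the genes lay below Cebpa and Cebpb. Between SiglecH-Ly6C- and SiglecH+Ly6C- pre-DC 0 of 3 genes were called (12.8% of all genes), with differences from -0.17 to 0.11. Between SiglecH+Ly6C- and SiglecH+Ly6C+ pre-DC 0 of 3 were called (9.63% of all genes), with differences from -0.16 to 0.06. In pDC minus CDP 0 of 2 genes were called (23.2% of all genes), with Cebpb at 0.26 and Cebpd at 0.10. In pDC minus SiglecH+Ly6C- pre-DC 0 of 2 were called (17.9% of all genes), with Cebpb at 0.44 and Cebpd at 0.02. Scaling mattered for all genes in these last comparisons. Size factors moved the share of calls that were higher in pDC from 15% to 28.2% against CDP and from 11.8% to 26.8% against the pre-DC, and the all-gene medians from -0.28 to -0.13 and from -0.26 to -0.11.

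Blood pre-DC differed from the marrow pre-DC in Cebpa and Cebpb. Against the equally weighted mean of the 4 marrow gates, Cebpa averaged 2.15 in blood and 0.59 in marrow and Cebpb 1.95 and 0.61. The differences of 1.56 and 1.34 made 2 of 3 genes compared higher by at least 1, where 3.53% of 13784 genes were, and 98.6% and 98.0% of the genes lay below them. The all-gene median was -0.25, and Cebpd was at -0.25 as well. SiglecH-Ly6C+ pre-DC alone averaged 1.10 for Cebpa and 1.14 for Cebpb, nearer to blood than the mean of the 4 gates. Blood and SiglecH-Ly6C+ pre-DC held Cebpa in 50% and 23.5% of cells and Cebpb in 37.5% and 35.3%. For Cebpa and for Cebpb the intervals of these shares overlap. Both genes were in the same blood cell in 4 of 16 cells, against 3 from the product of their shares. The 6 monocyte marker genes Csf1r, Ly6c2, Ccr2, Lyz2, F13a1 and Fcgr1 were all detected in some blood cell. Their summed level ran from 43.41 through a median of 5107.78 to 52749.7 TPM in blood. Medians were 4380.78 in SiglecH-Ly6C+, 941 in SiglecH-Ly6C-, 3844.13 in SiglecH+Ly6C+ and 154 TPM in SiglecH+Ly6C- pre-DC. Ly6c2 encodes Ly6C, on which these 4 marrow gates were sorted, so their sums were in part set by the sort. Of these 6 genes 5 were higher in blood by at least 1, with a median of 1.44, beside the 3.53% of all genes. Erythroid genes were at a sum of 1 TPM or more in 6 of the 16 blood cells. The part of either in the Cebpa and Cebpb values was not tested.

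A list of 9 acute response genes held Socs3, Il6, Il1b, Fos, Jun, Atf3, Ier3, Nfil3 and Dusp1. The part of C/EBP factors in their levels was not tested. In blood pre-DC 5 of the 9 were higher by at least 1 and 0 lower, beside 3.53% of all genes higher. The median difference of the 9 was 1.01. Those higher include Il1b at 3.56, Atf3 at 3.55, Dusp1 at 2.14 and Fos at 1.85. Of 10 genes in the primary granule list, which holds more than granule enzymes, Mgst1 (3.26), Hp (2.26) and Serpinb1a (1.35) were higher. Elane and Ctsg were at 0.00. Chil3, a chitinase-like gene of neutrophils, monocytes and macrophages, was higher by 2.80. The all-gene median was -0.25.

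Pre-pro-B cells and CLP, from the same run, differed in Cebpb. It averaged 0.84 in pre-pro-B cells, where 7 of 30 cells (23.3%) held it up to 72.63 TPM, and 1.92 in CLP, a difference of -1.08. It was the 1 gene of 3 compared that was lower by at least 1, as were 7.35% of 9637 genes, while Cebpd was at -0.17 and Gfi1 at -0.30. Of the 9 acute response genes 5 were lower in pre-pro-B cells, led by Fos at -5.44 and Dusp1 at -4.34. The median of the 9 was -1.52, beside 7.35% of all genes lower and an all-gene median of 0.07. Spi1 was lower as well, at -2.74.

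Genes that C/EBP factors are known to serve were read from lists. Primary granule genes, the azurophil granule enzymes and their companions, were higher in GMP than in LMPP by at least 1 in 9 of 10 cases and lower in 0, with a median of 6.90, beside 49.1% of all genes and an all-gene median of 0.96. They ran from Serpinb1a, a serpin that inhibits these proteases, at 0.90 to Elane at 12.69. Against CDP all 10 were higher, with a median of 8.22, beside 33.4% and 0.27 over all genes. In cMoP 5 of 10 were lower than in GMP and 0 higher, with a median of -0.95, beside 18.7% lower, 16.4% higher and a median of 0.12 over all genes, and Mpo at -0.24 and Hp at -0.06 were close to level. Genes listed as secondary granule genes, some of them targets of C/EBPε in maturing neutrophils, were detected in part. The list also holds S100a8, S100a9 and Chil3, which are not genes of secondary granule proteins alone. In GMP 5 of the 9 were in some cell and their summed level was at 1 TPM or more in 29 of 51 cells, with a median of 20.16 TPM; in cMoP 7 of 9 were in some cell. Ltf, Camp, Ngp and S100a9 were 0 in all 51 GMP cells, where 3 counts of the total, the floor used for a count of 0, are 5.88%. Lcn2, the gene of the granule protein lipocalin, was in 16 GMP cells, with a mean of 1.93, and in 8 cMoP cells, with a mean of 0.60. S100a8 averaged 1.17 in GMP and 1.22 in cMoP, and Fcnb, a ficolin gene, 0.69 and 2.98. Of the 9 genes 1 was higher in GMP than in LMPP by at least 1 (Lcn2) and 1 lower (Chil3, -1.30), with a median of 0.00 and the same all-gene values as above.

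Receptors for myeloid growth factors, among them classical C/EBPα and PU.1 targets, were higher in GMP than in LMPP in 5 of 5 cases, with a median of 2.76, beside 49.1% of all genes and an all-gene median of 0.96. Csf1r, the receptor for macrophage colony-stimulating factor, was higher by 3.93, Csf2ra by 3.26 and Csf3r, the receptor for granulocyte colony-stimulating factor, by 1.33. In cMoP 1 of 5, Csf2rb, was higher than in GMP by at least 1. CD115, the protein of Csf1r, was used to sort cMoP and CDP, so that gene is no finding between them and other gates.

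Among the other family members, Cebpg, the short partner without its own activation domain, averaged 2.97 in GMP, 2.06 in cMoP and 0.42 in LMPP. Ddit3, the stress-induced dimer partner CHOP, averaged 3.30 in GMP, 1.52 in cMoP and 2.68 in CLP. Cebpz, which shares the name but lacks the leucine zipper fold of the family, averaged 2.76 in GMP, 3.83 in cMoP and 0.42 in pDC. Against LMPP 2 of these 3 were higher in GMP by at least 1, with a median of 1.91, beside 49.1% of all genes and an all-gene median of 0.96. Trib1, an adaptor that directs C/EBPα to degradation, averaged 1.5 in GMP, and the 3 genes of that list in the table gave 0 calls against LMPP.

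Corepressors that Gfi1 recruits were present in GMP, with Hdac2 at 6.60, Hdac3 at 4.95, Rcor1 at 3.60 and Kdm1a at 2.17. Of the 8 genes of this list, Gfi1b and Snai1 included, 4 were higher in GMP than in LMPP by at least 1 and 0 lower, with a median of 1.11, close to the 49.1% and the median of 0.96 over all genes. Genes known as Gfi1 targets of repression did not follow a single direction. Of 12 in this list 3 were higher in GMP than in LMPP by at least 1, Irf8 (7.03), Csf1r (3.93) and Cdkn1a (2.12), and 4 lower, led by Meis1 (-5.45) and Egr1 (-2.84), with a median of -0.06, beside 49.1% higher and 7.49% lower over all genes. Against CDP 2 were higher and 3 lower, with a median of -0.15, beside 33.4% higher and 14.2% lower over all genes. Among the 13 partner factors, Spi1 and Irf8 were higher in GMP than in LMPP by 6.21 and 7.03, and 5 were higher and 2 lower by at least 1, with a median of 0.35, below the all-gene 0.96. Irf8 and Csf1r stand in more than 1 list.

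**Figure D4:**
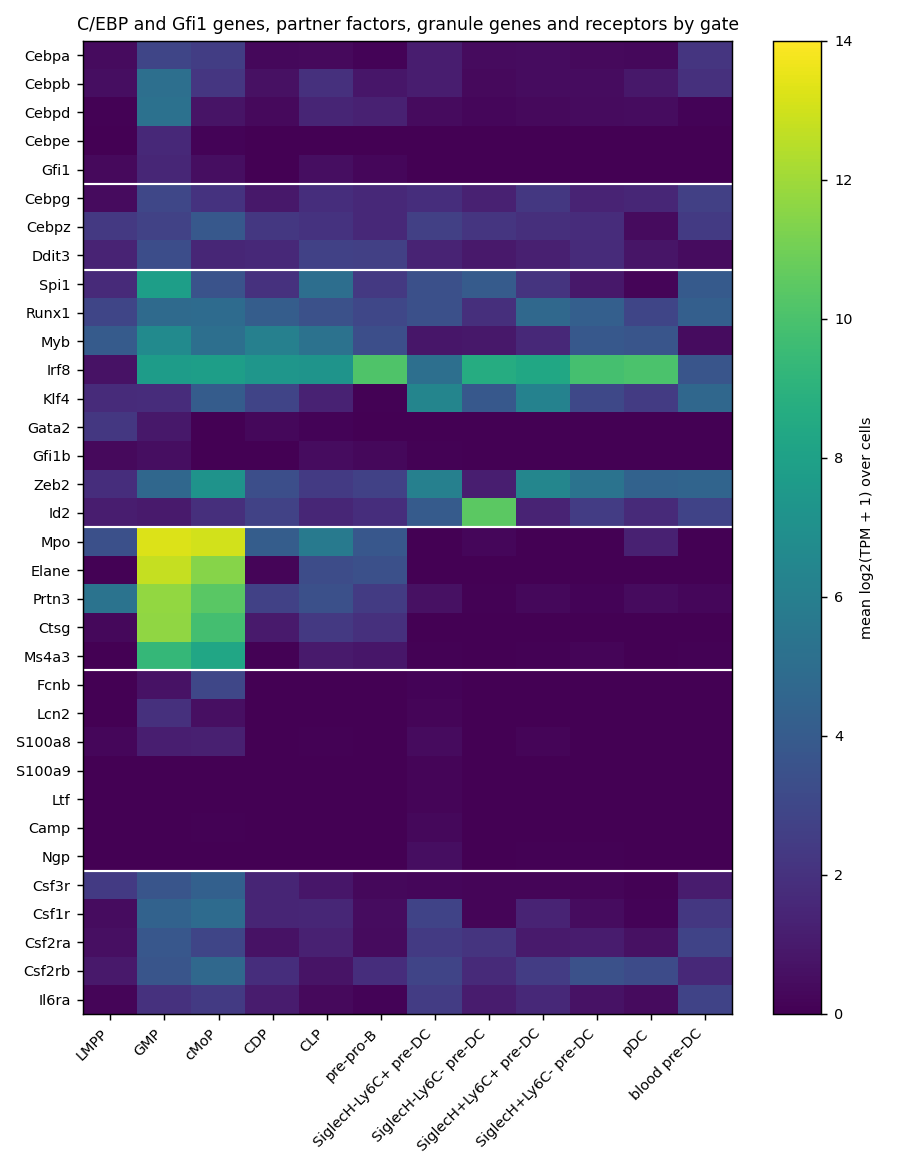
Mean log2(TPM + 1) in each of the 12 gates (columns) for the 5 genes and for other C/EBP genes, partner factors, primary and secondary granule genes and growth factor receptors (rows, with white lines between groups); the colour scale runs from 0 to 14. GMP and cMoP share high primary granule values (Mpo 13.28 and 13.04, Elane 12.79 and 11.46), while Cebpd is 5.23 in GMP and 0.71 in cMoP.

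Within GMP most cells held several of the 5 genes. No cell held 0, 3 cells held 1, 10 cells held 2, 20 cells held 3, 10 cells held 4 and 8 cells held all 5. In cMoP 1 cell held 0, 20 held 1, 32 held 2 and 13 held 3. In LMPP 45 of 65 cells held 0, 17 held 1 and 3 held 2, and in CLP 17 of 48 held 0, 21 held 1, 9 held 2 and 1 held 3.

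Pairs of these genes in GMP met about as often as the product of their single shares gives. Cebpb and Cebpd were together in 39 cells (product 38.7), Cebpa and Cebpb in 34 (33.2) and Cebpa and Cebpd in 31 (29.6). Cebpe met Cebpb in 18 cells (18.4) and Cebpd in 16 (16.5). At 1 TPM the widest gap was for Cebpe and Gfi1, together in 11 of 51 cells against 7.06 from the product. At 10 TPM the widest gap was instead for Cebpa and Cebpe, together in 12 cells (8.24). Cebpe and Gfi1 met at 10 TPM in 6 cells (3.53). In cMoP at 1 TPM Cebpe and Gfi1 met in 0 cells, where the product is 0.318, too few to be detectable. These counts carry no test, and 51 cells limit their precision.

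Over the 51 GMP cells the genes fell into different company. Pearson correlations of log2(TPM + 1), given as descriptions of 51 libraries from 1 gate and 1 run, tied Cebpa to the primary granule genes, with 0.48 for Ctsg, 0.45 for Ms4a3, 0.44 for Serpinb1a, 0.40 for Prtn3 and 0.38 for Mpo. Cebpd had 0.46 with Spi1, 0.43 with Prtn3 and 0.40 with Mpo. Cebpb had 0.46 with Irf8, 0.41 with Csf1r, 0.41 with Cebpg and 0.34 with Klf4, a monocyte factor, and -0.07 with Elane. Cebpe had the opposite signs, with -0.36 for Irf8, -0.41 for Klf4, -0.45 for Zeb2 and -0.25 for Csf1r, and 0.39 with Myb and 0.31 with Elane. Gfi1 had 0.44 with Elane, 0.36 with Cst7, 0.33 with Ms4a3 and 0.32 with Lcn2, and -0.31 with Klf4 and -0.19 with Irf8. Among the 5 genes themselves the highest was 0.25, for Cebpe with Gfi1. The number of genes per cell correlated with Cebpb at 0.31, Cebpd at 0.24, Gfi1 at 0.17, Cebpa at 0.15 and Cebpe at 0.06. Correlations of this size in sparse data are weak, and none is a finding on its own.

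**Figure D5:**
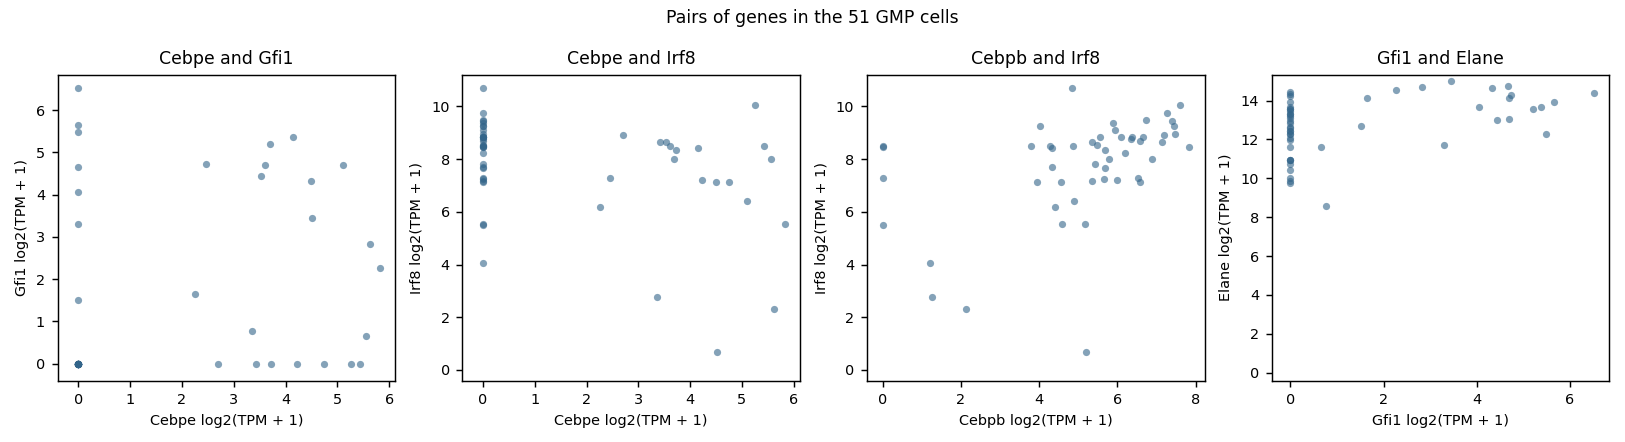
Levels of 4 gene pairs in the 51 GMP cells, each axis log2(TPM + 1) of the gene named and each point a cell, for Cebpe with Gfi1, Cebpe with Irf8, Cebpb with Irf8 and Gfi1 with Elane. The Pearson correlations are 0.25, -0.36, 0.46 and 0.44, and many cells lie at 0 for Cebpe or Gfi1.

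Counts of GMP cells show the same pairs at fixed thresholds. At 1 TPM Cebpe was in 20 cells and Klf4 in 24, and 4 cells held both, against 9.41 from the product. At 10 TPM Cebpe was in 15 cells and Klf4 in 13, and 0 held both, against 3.82. Gfi1 and Klf4 met in 5 cells at 1 TPM (8.47) and in 0 at 10 TPM (3.06). Other genes did not share this with Gfi1. Csf1r met it in 14 cells at 1 TPM (12.7) and 9 at 10 TPM (7.53). Zeb2 met it in 15 (15.5) and 9 (9.18), and Irf8 in 17 (17.6) and 12 (11.3). Unlike Cebpe and Gfi1, Cebpd was held at 10 TPM by all 13 cells with Klf4 at that level (10.2). At 1 TPM Cebpd and Klf4 met in 20 cells (19.8). At 1 TPM all 36 cells with Csf1r held Cebpb (33.2). Genes of the secondary granule list went both ways. At 1 TPM Lcn2 met Gfi1 in 10 cells (5.65) and Cebpe in 8 (6.27), and S100a8 met Cebpe in 6 of its 8 cells (3.14) but Gfi1 in 3 (2.82). Fcnb met Cebpe in 3 cells (2.75) and Gfi1 in 2 (2.47), and Mmp8 met each of them in 1 cell (2.75 and 2.47) and, at 10 TPM, in 0 (1.76 and 1.41). The 3 GMP cells with Irf8 below 10 TPM, at 0.60, 3.99 and 5.83 TPM, all held Cebpe, at 21.80, 48.39 and 9.20 TPM. The next lowest in Irf8, at 15.7, 43.84 and 45.45 TPM, had Cebpe at 0, and the cell after them, at 45.78 TPM, had 55.86 TPM. The cell with the most Gfi1, 90.6 TPM, had Cebpe at 0 and Irf8 at 452.93 TPM, so a high value of either gene also occurred without the other.

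Across the 12 gate means, other genes followed each of the 5 closely. Of the 25 genes named here, 24 correlated at 0.74 or more over the 11 gates without GMP. They were picked by their correlation over all 12 gates, which include these 11, so this is no independent check. Outside GMP Cebpe was held only by 3 cMoP cells and 1 CLP cell, and its values without GMP rest on those. For Cebpe the nearest of 9924 genes were Chst13 (Pearson 0.998), Plekhf1, Gdf3 and Mrgpra2b (each 0.99) and Spr (0.98), and Spr was at 0.44 without GMP. For Gfi1 they were Dhrs11, Fam195a and Impdh1 (each 0.99), Tmem185b and Nudt9 (each 0.98). For Cebpd they were Car1 (0.99), Clptm1, Endog, Srrd and Tmem115 (each 0.98). For Cebpb they were Orai1 (0.97), Dok3, Ddx28, Spryd7 and Trnau1ap (each 0.96). For Cebpa, high in both GMP and cMoP, they were Cln8, Mtus1, Tnfaip2 and Mefv (each 0.97) and App (0.96). Of these Mtus1 was at 0.99 without GMP. Which 5 genes came nearest depended on the measure, with 0 to 4 of 5 shared under the other measures tried. The 5 genes correlated with each other at 0.55 to 0.96 over the 12 gates and at -0.19 to 0.76 over the 11 gates without GMP.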

How the data were processed

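Single cells were sorted, captured on a C1 chip and amplified from oligo-dT primers, with Nextera XT libraries, per the labels' protocols. The authors deposited TPM per gene symbol and cell, made with RSEM 1.2.19 on GRCm38 per the submitters' processing notes. The names of the aligner and the annotation were not given in the sources used here. All cells and all 12 gates were used; the group is the labelled cell population, since some titles are not unique to a gate. Of 43280 symbols 15695 were 0 in every cell. TPM totals per cell lay between 997617 and 1000000 and give no depth, so intervals cover counts of cells only.

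The level was the mean over cells of log2(TPM + 1), a pseudocount of 1, which understates folds of low genes. Differences of 1 or more were called, among genes reaching 1 TPM in 10% or more of the cells of either gate. With 1 sample per gate no p-value or standard error was computed. Doublets were not called; the values were also computed without the top 5% of cells by gene number in each gate. The genes and lists were chosen with earlier results of these data known. Named are the 5 genes, the genes of the lists and, per gene, the 5 with the nearest pattern over gate means (at 1 TPM in 20% of the cells of some gate, without predicted, mitochondrial, ribosomal, sex-linked and receptor segment genes, pseudogenes and sort markers). Alternatives were other pseudocounts, log2 of the mean TPM, size factors, filters, thresholds and cell subsets. Scripts ran in Python 3.11.15 with matplotlib 3.10.9, scipy 1.17.1, pandas 2.3.3 and numpy 2.4.6, and the steps were tested on simulated data.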

Additional observations from a re-analysis of the deposited data

How the results depend on the processing

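Alternatives gave 161 recomputed values for member differences of at least 1. None of these changed sign, and 7 moved by more than the SD over cells. Among all 435 recomputed member differences 423 moved by no more than that SD and the other 12 by more. The number of the 5 genes past the threshold was more sensitive, with 102 of 123 counts within 1.5 times the main one. With a pseudocount of 0.1 the count for SiglecH-Ly6C+ minus SiglecH+Ly6C+ pre-DC was 2 instead of 0. With a pseudocount of 10 it was 2 for GMP minus LMPP, GMP minus CLP, GMP minus CDP and cMoP minus GMP, and 0 for cMoP minus SiglecH-Ly6C+ pre-DC, pre-pro-B minus CLP and blood minus marrow pre-DC. With a threshold of 2 on the log2 scale it was 3 for GMP minus LMPP and GMP minus CDP, 2 for cMoP minus GMP, and 0 for cMoP minus SiglecH-Ly6C+ pre-DC, pre-pro-B minus CLP and blood minus marrow pre-DC. With the log2 of the mean TPM, which single high cells can carry, it was 1 for cMoP minus SiglecH-Ly6C+ pre-DC, SiglecH-Ly6C+ minus SiglecH+Ly6C+ pre-DC, SiglecH+Ly6C- minus SiglecH+Ly6C+ pre-DC and pDC minus CDP. It was 2 for SiglecH-Ly6C- minus SiglecH+Ly6C- pre-DC, pDC minus SiglecH+Ly6C- pre-DC and pre-pro-B minus CLP. Size factors over 762 genes, leaving out the 4 cells under 2000 genes or the 37 cells with the most genes, shared number runs, other detection filters and the range of 3000 to 6000 genes, chosen after seeing the data, kept each count within 1.5 times. No paired analysis was possible because no label numbers cells by animal. Depth is unknown, so a gene at 0 in a cell was not detectable there rather than absent, and 16 blood cells and 27 pDC give wide intervals.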
